A study of Homo sapiens with 4 samples.

Results

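Glucose-handling genes were followed in human embryonic kidney cells that lack THUMPD1, the adapter that NAT10 needs to acetylate tRNA. The set named 37 genes of glycolysis, the pentose phosphate pathway and the response to low oxygen, picked by symbol and not by a threshold on measured values. These genes were chosen with earlier results of these data known. The count table of 18917 genes held 36 of them, and PFKL was not analysed here. Of the 36, 33 passed a filter that asks for a CPM (the count scaled to a common library size) of 1 or more in 2 or more libraries, and were tested among 13128 genes. SLC16A3, CA9 and ANKRD37 did not pass.

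The groups were WT cells and THUMPD1 knockout (KO) cells of one line, with 2 libraries each. The labels call the line HEK293, and the methods of the study name HEK-293T, a derivative that carries the SV40 large T antigen. Both genotypes grew in DMEM with 10% fetal bovine serum and 2 mM glutamine, and no low-oxygen arm was among the samples. The KO cells were made with CRISPR-Cas9 and passed through single-cell sorting, so the genotype and the clone cannot be told apart. Whether the libraries of a genotype came from separate cultures is not stated, and the p-values measure only the spread between these libraries. Since RNA was pooled over cells, a change in every cell and a change in a fraction of the cells cannot be told apart.

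Libraries held 7875722 to 11362363 counts. THUMPD1 was read at 356 and 468 counts in WT against 71 and 58 in KO (log2 fold change -2.93 ± 0.17, adjusted p = 1.27e-12). Of 10 kidney or HEK293 markers tested, 2 were higher (LHX1, NEFL) and 2 lower (NEFM, KRT18) in KO. Other cell types left few counts, with 2 of 6 fibroblast, 2 of 6 leukocyte and 0 of 4 endothelial markers passing the filter, and none of those was called by edgeR, DESeq2 or limma or had an unadjusted p under 0.05. PTPRC, which defines leukocytes, had at most 5 counts in a library. On chromosomes 16 and 22, 50.6% and 60.1% of tested genes were lower in KO, and ALDOA is the only member on either one.

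Glycolysis splits glucose into pyruvate, and yields ATP and NADH without oxygen. Pyruvate then enters mitochondria or is reduced to lactate, which regenerates NAD+ and leaves the cell. The pentose phosphate pathway branches off after the first phosphorylation of glucose, and makes NADPH and ribose for nucleotides. When oxygen is low, prolyl hydroxylases no longer mark the hypoxia-inducible factor HIF-1α for destruction by the VHL ligase. HIF-1 then binds DNA at a short core motif and raises glucose transporters, most glycolytic enzymes, LDHA and PDK1. Cultured cell lines already use much glucose in this way in ample oxygen.

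Short stretches around the core HIF motif ACGTG are shown for called genes, since it is the DNA element by which the set's shared regulation is usually described. RefSeq promoter windows (GRCh38.p14, 250 bases before to 50 after each annotated start) matched 32 of the 36 genes. SLC2A3, SLC16A1, PFKFB2 and VEGFA had none. ACGTG was searched on both strands. It was present in 19 of the 32 genes (59.4%), against 24.9% of all 27305 genes with a window. Per window, 23 of 58 held it (39.7%), against 21.4% of all 35116. A second form of the core, GCGTG, was in 36.2% of the windows and 36.5% of all windows. ACGTG was found in 4 of 7 genes that rose in KO, 4 of 5 that fell and 8 of 17 that were not called, so genes of both directions held it. Capitals mark a copy of the motif in the lines that follow, each 5′ to 3′ on the strand of the gene. In PDK1 the motif is on the other strand, and a further copy on that strand, near the end of the stretch, is left in lower case. In HK2, ALDOA, LDHA and BNIP3 it is part of CACGTG, which is also the E-box bound by MYC and other factors. A match is a description of the letters, not of binding.
HK2 (lower, chr2:74835012-74835036, plus strand): cggcgagagcACGTGgagagaatcg
PFKP (lower, chr10:3069040-3069064, plus strand): acgagcgcctACGTGatgcccggcc
ALDOA (lower, chr16:30064376-30064400, plus strand): cagggaggccACGTGatccgagtcc
PGK1 (lower, chrX:78104036-78104060, plus strand): ggcgtgccggACGTGacaaacggaa
GPI (higher, chr19:34364820-34364844, plus strand): actgcctgtaACGTGgaaggtgttc
LDHA (higher, chr11:18394467-18394491, plus strand): cccgactcacACGTGggttcccgca
PDK1 (higher, chr2:172556063-172556087, plus strand): tgctgcccgcCACGTccctcacgta
BNIP3 (higher, chr10:131982042-131982066, minus strand): cacgcgccgcACGTGccacacgcac

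The genes did not move in one direction. In KO cells 8 rose (SLC2A3, GPI, LDHA, LDHB, PDK1, TKT, TALDO1 and BNIP3), 5 fell (HK2, PFKP, ALDOA, PGK1 and PKM) and 20 were not called. Most of the differences were small. The median log2 fold change of the 33 was 0.08, beside 0.01 over all genes tested, with a range from -0.75 (EGLN3) to 1.08 (SLC2A3). Only SLC2A3 and PFKP were called with a log2 difference of 0.5 or more in size.

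The called share was 39.4%, against a background of 20.9% of all genes tested (8.79% higher, 12.1% lower). Calls were more frequent among abundant genes. Whether abundance accounts for the called share of the members was not tested. Among members with a mean of at least 100 CPM, 8 of 14 were called, beside 38.7% of all 2230 genes at that level. Under 100 CPM, 5 of 19 were called, beside 17.3%. Both KO libraries lay above both WT libraries for 15 of the 33, and below them for 9. The background of such non-overlap was 60.4% of genes (30.4% above, 30% below). Leaving out 1 library in turn left 9 or 10 members called. The number higher was 5 without KO replicate 2 or WT replicate 2, and the number lower was 3 without KO replicate 1 or WT replicate 1. Scaling by library size alone, which moved the median of all genes to 0.09, gave 10 higher and 3 lower.

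**Figure D1:**
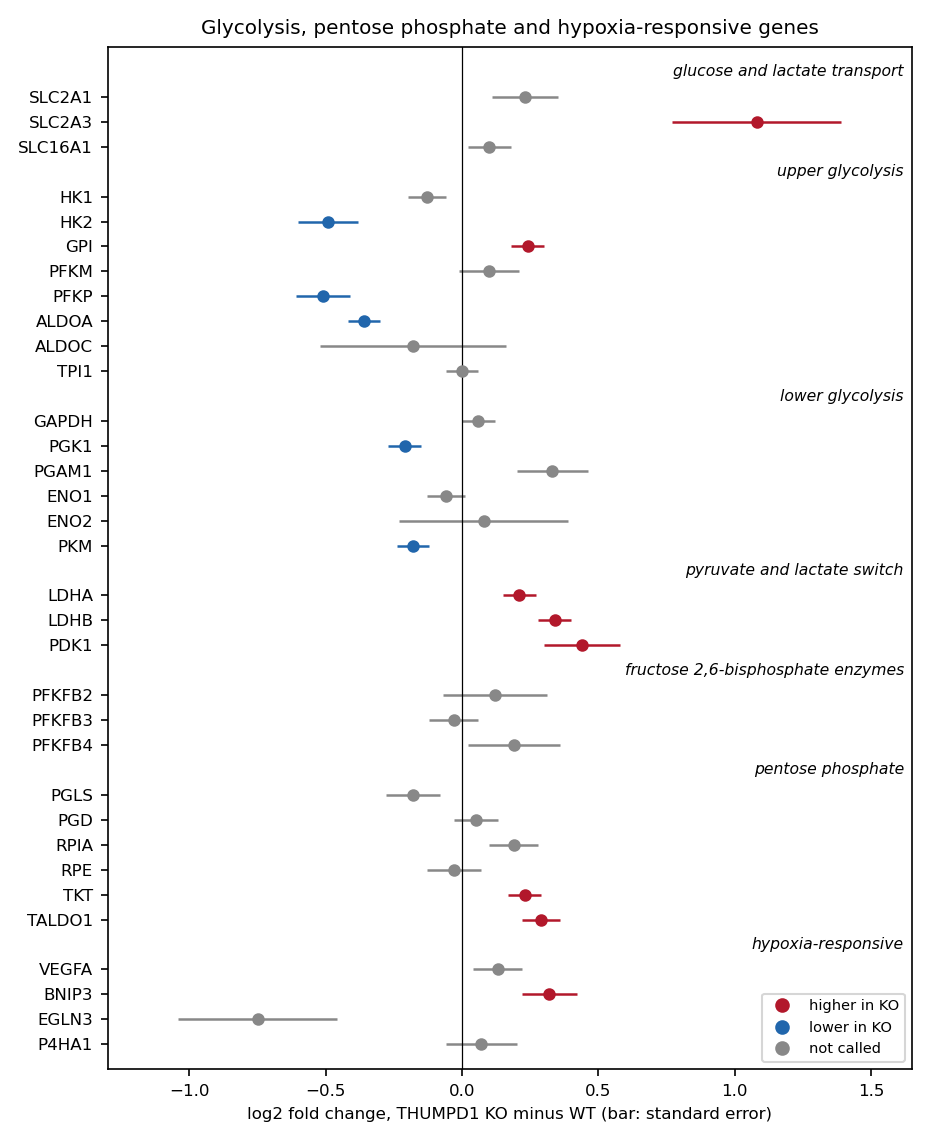
Log2 fold change of KO against WT (horizontal axis) for the 33 tested genes, grouped by role. Points are edgeR estimates, bars are standard errors, and colours mark the 8 higher, 5 lower and 20 not called. The 3 genes at the pyruvate and lactate step lie to the right of 0, while upper glycolysis holds 3 of the 5 lower genes, ALDOA of chromosome 16 among them.

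**Figure D2:**
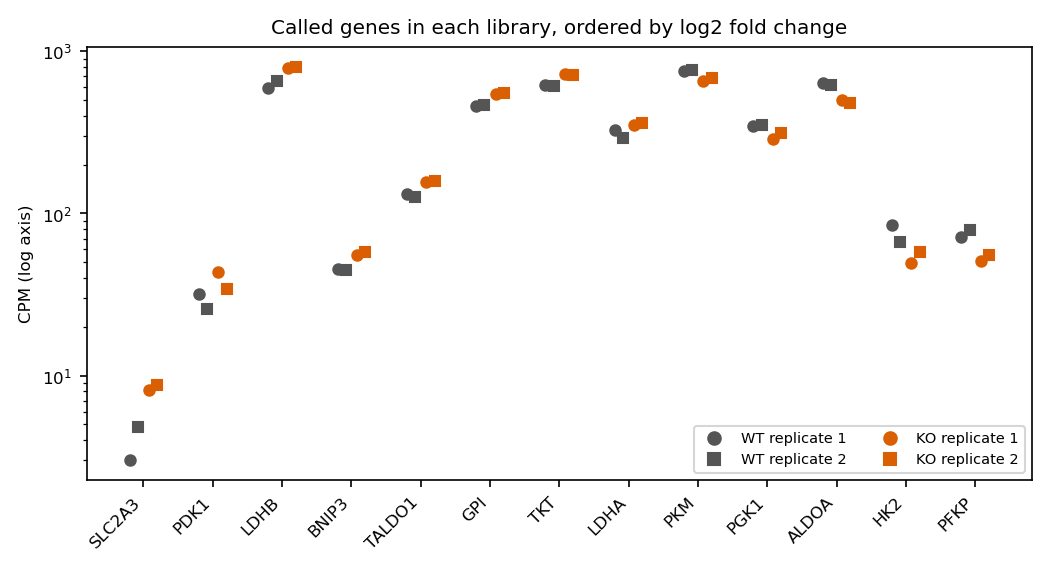
CPM on a log axis of the 13 called genes in each of the 4 libraries, ordered by log2 fold change. In each of the 13 genes, both KO libraries lie on the same side of both WT libraries.

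At the membrane, a minor glucose transporter rose and the main one was not called. SLC2A3 encodes GLUT3, a high-affinity glucose transporter best known from neurons (ENSG00000059804.17, chr12:7919230-8019007, minus strand). It had 3.0 and 4.82 CPM in WT and 8.21 and 8.73 CPM in KO, from 23 and 53 against 95 and 93 counts. Both KO libraries were above both WT libraries, and the fold was 2.11 (log2 1.08 ± 0.31, adjusted p = 0.0129). Its annotated pseudogenes number 3. The call was lost without WT replicate 1 (0.81, adjusted p = 0.0725) and without KO replicate 2 (1.04, adjusted p = 0.0631).

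SLC2A1, encoding GLUT1, the transporter that supplies most cultured cells, had 39.9 and 33.4 CPM in WT and 44.7 and 40.9 CPM in KO. The KO libraries were higher, yet the difference did not pass the test (log2 0.23 ± 0.12, adjusted p = 0.182). SLC16A1 (MCT1), which carries lactate and pyruvate across the plasma membrane with a proton, differed by 0.10 on the log2 scale (adjusted p = 0.365), and its libraries overlapped. SLC16A3 (MCT4), the lactate exporter of strongly glycolytic cells, was almost silent, at 0 and 2 counts in WT against 15 and 4 in KO. It was not tested, and the WT counts are at or under a floor of 3 counts per library. MCT1 was thus the only one of these lactate carriers with more than a trace of mRNA in these cells.

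Upper glycolysis, the stretch that spends ATP, held 3 of the 5 falls, and 1 of these is ALDOA on chromosome 16. Of 8 tested genes 3 fell, 1 rose and 4 were not called, with a median log2 fold change of -0.15. Over all genes tested 12.1% were lower and 8.79% higher, and 23.4% were lower among those of at least 100 CPM. HK2 encodes the hexokinase that is inducible and abundant in tumours (ENSG00000159399.10, chr2:74834127-74893359, plus strand). It had 85.0 and 66.9 CPM in WT and 49.7 and 58.2 CPM in KO. The fold was 0.714 (log2 -0.49 ± 0.11, adjusted p = 0.00222), and the libraries did not overlap. Its WT values spread widely (76.0 ± 12.8 CPM, SD, n = 2), and without WT replicate 1 the estimate was -0.31 with an adjusted p of 0.0503. HK1, the housekeeping hexokinase, had 130 and 131 CPM in WT and 115 and 125 CPM in KO and was not called (log2 -0.13, adjusted p = 0.247).

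PFKP, the platelet form of phosphofructokinase, which commits sugar to glycolysis, fell as well (ENSG00000067057.19, chr10:3066333-3137718, plus strand). It had 71.9 and 78.9 CPM in WT and 51.0 and 55.2 CPM in KO. The means were 75.4 ± 4.97 and 53.1 ± 3.0 CPM (SD, n = 2), a fold of 0.702 (log2 -0.51 ± 0.10, adjusted p = 0.000381). Leaving out any library kept the estimate between -0.57 and -0.44. PFKM, the muscle form, was not called (log2 0.10 ± 0.11, adjusted p = 0.56).

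GPI, which turns glucose 6-phosphate into fructose 6-phosphate and can run either way, was the riser of the group (ENSG00000105220.17, chr19:34359480-34402413, plus strand). It had 463 and 469 CPM in WT and 547 and 550 CPM in KO, and the replicates lay close together. The fold was 1.18 (log2 0.24 ± 0.06, adjusted p = 0.00475), and without any one library it was 0.22 to 0.25 on the log2 scale. TPI1, which interconverts the triose phosphates made by aldolase, had 469 and 479 CPM in WT and 465 and 482 CPM in KO, a log2 fold change of 0.00 ± 0.06. ALDOC, the brain aldolase, stayed at 5.22 CPM or lower in every library and was not called.

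ALDOA, the main aldolase, fell together with its chromosome. It splits fructose 1,6-bisphosphate into triose phosphates, and lies on the short arm of chromosome 16 (ENSG00000149925.22, chr16:30064164-30070457, plus strand). It had 640 and 618 CPM in WT and 500 and 479 CPM in KO. The libraries did not overlap, and the fold was 0.778 (log2 -0.36 ± 0.06, adjusted p = 7.51e-05, -0.39 to -0.33 with a library left out). Over the other 572 tested genes of chromosome 16 the median log2 fold change was -0.44, and over the other 304 of its short arm it was -0.56. ALDOA was thus 0.08 above the chromosome's median and 0.19 above that of the short arm, and 340 of the 572 genes had lower values. Without WT replicate 2 the difference from the chromosome's median was 0.02.

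The genes around ALDOA were mostly lower too. Before it, HIRIP3 (68.1 kb away, log2 -0.76), INO80E (58.4 kb, -0.39) and DOC2A (40.9 kb, -1.18) all fell, with adjusted p-values of 4.66e-09, 0.00147 and 0.0124. After it, PPP4C, a phosphatase subunit 5.5 kb away, fell (log2 -0.52, adjusted p = 4.07e-06), while TBX6 (-0.10) and YPEL3 (0.37) were not called. Of 52 other tested genes that start within 1 Mb, 34 were lower, 0 were higher by edgeR and 18 were not called. DESeq2 and limma also called 0 higher, 0 had an unadjusted p under 0.05 in that direction, and 51 of the 52 had estimates below 0. A change at ALDOA itself and the shift of the chromosome cannot be told apart in these libraries. The remaining 12 called members are on other chromosomes. Among genes placed off chromosomes 16 and 22 the called share was 18.5%, and 9.13% were lower.

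Lower glycolysis, which recovers ATP, showed small falls in its ATP-making enzymes. Of 6 tested genes 2 fell, 0 rose by edgeR, DESeq2 or limma and 4 were not called, with a median log2 fold change of 0.00. At an unadjusted p under 0.05, 1 was higher (PGAM1). Over all genes tested 12.1% were lower and 8.79% higher. Among those of at least 100 CPM, the level of both falls, 23.4% were lower. PGK1, which makes the first ATP of this stretch (ENSG00000102144.15, chrX:77910739-78129295, plus strand), had 345 and 349 CPM in WT and 288 and 313 CPM in KO. Its fold was 0.867 (log2 -0.21 ± 0.06, adjusted p = 0.0198) with no overlap of libraries. PKM, the pyruvate kinase that makes the last ATP (ENSG00000067225.21, chr15:72199029-72231819, minus strand), had 755 and 762 CPM in WT and 658 and 680 CPM in KO. Its fold was 0.882 (log2 -0.18 ± 0.06, adjusted p = 0.0251), again with no overlap. Gene-level counts do not separate the PKM1 and PKM2 splice forms.

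Both calls were lost under several settings. With scaling by library size alone the estimates were -0.12 for PGK1 (adjusted p = 0.157) and -0.10 for PKM (adjusted p = 0.23). The PGK1 call was lost without KO replicate 1 (-0.14, adjusted p = 0.272) and WT replicate 2 (adjusted p = 0.0575). That of PKM was lost without KO replicate 1 (adjusted p = 0.174), WT replicate 1 (adjusted p = 0.0568) or WT replicate 2 (adjusted p = 0.0933), and with upper-quartile scaling (adjusted p = 0.0526).

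GAPDH, the NADH-making dehydrogenase often used as a reference gene, had 2054 and 1867 CPM in WT and 2021 and 2069 CPM in KO. The libraries overlapped, and the log2 fold change was 0.06 ± 0.06 (adjusted p = 0.517). ENO1, the main enolase, and ENO2, the neuronal form, had log2 fold changes of -0.06 and 0.08, with overlapping libraries. PGAM1, the mutase ahead of enolase, had 27.0 and 27.2 CPM in WT and 35.1 and 33.1 CPM in KO. Its log2 fold change of 0.33 ± 0.13 did not pass (adjusted p = 0.0698), although it was called with scaling by library size alone (0.42, adjusted p = 0.0193) and by the upper quartile (0.36, adjusted p = 0.0493). Annotated pseudogenes by name number 65 for GAPDH, 13 for PGAM1, 6 for LDHA, 5 for PKM and 4 each for TPI1 and ENO1, so their counts are uncertain where reads could be shared, which was not tested.

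LDHA, LDHB and PDK1, the set's 3 genes at the pyruvate and lactate step, were each called higher, with a median log2 fold change of 0.34, beside a background of 8.79% of genes higher. Of the related genes outside the set, PDK2 (-0.20), PDK3 (-0.13), PDK4 (-1.16) and LDHC (0.18) were not called. LDHB, the lactate dehydrogenase subunit that favours lactate as substrate, is on chromosome 12 (ENSG00000111716.14, chr12:21635342-21757857, minus strand). It had 596 and 657 CPM in WT and 786 and 804 CPM in KO, a fold of 1.27 (log2 0.34 ± 0.06, adjusted p = 0.0002). The KO libraries were higher than both WT libraries by more than the spread within either group, and 0.27 to 0.41 remained with any library left out. LDHA, the subunit that favours pyruvate as substrate (ENSG00000134333.15, chr11:18394560-18408425, plus strand), had 327 and 291 CPM in WT and 351 and 361 CPM in KO. Its fold was 1.15 (log2 0.21 ± 0.06, adjusted p = 0.0241). The LDHA call was lost without WT replicate 2 (0.12, adjusted p = 0.3) or KO replicate 2 (0.19, adjusted p = 0.0874).

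PDK1, a kinase that switches off pyruvate dehydrogenase and so holds pyruvate back from mitochondria, also rose (ENSG00000152256.14, chr2:172555373-172608669, plus strand). It had 32.0 and 25.8 CPM in WT and 43.5 and 34.0 CPM in KO, a fold of 1.36 (log2 0.44 ± 0.14, adjusted p = 0.0266). The lower KO library was only slightly above the higher WT library. The call was lost without KO replicate 1 (0.25, adjusted p = 0.396) or WT replicate 2 (0.28, adjusted p = 0.239), and DESeq2 gave an adjusted p of 0.111.

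The enzymes that set fructose 2,6-bisphosphate, the strongest activator of phosphofructokinase, gave no call by edgeR, DESeq2 or limma, and 0 of 3 had an unadjusted p under 0.05. PFKFB2, PFKFB3 and PFKFB4 had log2 fold changes of 0.12, -0.03 and 0.19, with adjusted p-values of 0.704, 0.875 and 0.453. PFKFB3, the form known for high kinase activity, had 70.7 to 82.5 CPM across the 4 libraries, and the sign of its difference turned with scaling by library size alone (0.06).

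In the pentose phosphate pathway, both sugar-shuffling enzymes rose and the steps before them were not called. TKT, transketolase, which moves carbon pairs between sugar phosphates with thiamine as cofactor (ENSG00000163931.17, chr3:53224712-53256052, minus strand), had 621 and 607 CPM in WT and 725 and 717 CPM in KO. Its fold was 1.17 (log2 0.23 ± 0.06, adjusted p = 0.00501). TALDO1, transaldolase, which works beside it and links the pathway back to glycolysis (ENSG00000177156.11, chr11:747415-765012, plus strand), had 131 and 127 CPM in WT and 157 and 158 CPM in KO. Its fold was 1.22 (log2 0.29 ± 0.07, adjusted p = 0.004). Neither gene's libraries overlapped. With any library left out the estimates were 0.21 to 0.25 for TKT and 0.26 to 0.31 for TALDO1. Over all genes tested 8.79% were higher, and 15.3% among those of at least 100 CPM.

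Of the other 4 genes, PGLS and PGD act in the oxidative branch, which makes NADPH, and RPIA and RPE interconvert pentose phosphates. Their log2 fold changes were -0.18, 0.05, 0.19 and -0.03, with adjusted p-values from 0.139 (RPIA) to 0.842 (RPE). RPIA was called higher with scaling by library size alone (0.28, adjusted p = 0.0261).

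Among the hypoxia-responsive genes outside glycolysis, only BNIP3 was called. Of 6 named, 4 were tested, 1 rose and 3 were not called, with a median log2 fold change of 0.10. Over all genes tested 8.79% were higher, and 4 genes are too few for a statement on the group. BNIP3, a mitochondrial receptor for autophagy (ENSG00000176171.12, chr10:131967684-131981967, minus strand), had 45.4 and 45 CPM in WT and 55.4 and 57.7 CPM in KO. Its fold was 1.25 (log2 0.32 ± 0.10, adjusted p = 0.0261) without overlap. Leaving out any 1 of the 4 libraries lost the call, with adjusted p-values of 0.0634 and 0.124 without KO replicates 1 and 2, and of 0.0585 and 0.0952 without WT replicates 1 and 2. DESeq2 gave 0.103, and BNIP3 has 44 annotated pseudogenes.

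VEGFA, the growth factor for blood vessels and a standard HIF target, had 65.3 and 71.5 CPM in WT and 75.8 and 74.3 CPM in KO. Its libraries did not overlap, but the difference did not pass (log2 0.13 ± 0.09, adjusted p = 0.333). P4HA1, a collagen prolyl hydroxylase, differed by 0.07 on the log2 scale (adjusted p = 0.729). EGLN3, the prolyl hydroxylase PHD3, which HIF induces as feedback, had 10.7 and 7.28 CPM in WT and 4.92 and 5.63 CPM in KO. At log2 -0.75 ± 0.29 it did not pass (adjusted p = 0.0653), although it was called without WT replicate 2 (-1.02, adjusted p = 0.0195) and when genes of low count were kept (adjusted p = 0.0441).

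CA9, carbonic anhydrase IX, which HIF-1 induces tightly, was near absent in both genotypes. It was read at 0 and 2 counts in WT and at 1 and 2 in KO, all under the floor of 3 counts, which equals 0.259 to 0.391 CPM depending on the library. Such floors cover counting error only. ANKRD37, a further HIF target, was read at 0 and 11 counts in WT against 5 and 4 in KO and was not tested.

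Per length of transcript, GAPDH led by a wide margin, and the order of the genes below it changed between the genotypes. Values are CPM per kilobase of the canonical GENCODE transcript (mean ± SD, n = 2). In WT, GAPDH was at 1526 ± 103, LDHB at 481 ± 33.0, ALDOA at 384 ± 9.49, TPI1 at 351 ± 5.54, PKM at 329 ± 2.01, ENO1 at 241 ± 2.80, TKT at 205 ± 3.29 and LDHA at 138 ± 11.6. None of these neighbours overlapped in the WT libraries. In KO, LDHB was at 610 ± 9.85, TPI1 at 351 ± 9.10, ALDOA at 298 ± 9.44 and PKM at 290 ± 6.80, and the libraries of ALDOA and PKM overlapped. TKT (241 ± 1.97) and ENO1 (231 ± 23.7) overlapped as well. The 3 genes not tested were the lowest of the 36 in both genotypes. SLC2A3 came next in WT, at 1.02 ± 0.337, while in KO its 2.21 ± 0.0973 was above EGLN3 (1.95 ± 0.186) and close to PFKFB2 (2.10 ± 0.398). Together the 36 genes took 0.775% and 0.754% of all counts in WT and 0.830% and 0.838% in KO, of which GAPDH alone took 0.181% to 0.211%.

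Isozyme shares did not overlap between the genotypes for phosphofructokinase, hexokinase and the glucose transporters. Those of PFKFB3 and PFKFB4 did not overlap either, while that of PFKFB2 did. Shares overlapped or differed by under 1 percentage point for the lactate dehydrogenases, aldolases, enolases and lactate carriers. Shares are of the family's counts per kilobase of the longest transcript, and an exact permutation test of 2 against 2 libraries (two-sided) cannot go below p = 0.333. PFKM was 35.7% and 34.0% of PFKM and PFKP together in WT, and 44.6% and 45.2% in KO. The difference of 10.0 percentage points (exact p = 0.333) was far above the SDs of 1.17 and 0.426, and PFKL is not part of this sum. HK1 was 68.2% and 73.4% of both hexokinases in WT and 76.5% and 75.1% in KO, a difference of 4.96 points (exact p = 0.333). It was 2.34 points without WT replicate 1 and 7.59 points without WT replicate 2, while that of PFKM ran from 9.19 to 10.9 with a library left out. Neither phosphofructokinase nor hexokinase shares overlapped between genotypes.

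GLUT1 remained the main transporter, although its share was lower in KO. SLC2A1 made up 94.6% and 90% of SLC2A1 and SLC2A3 in WT and 87.7% and 85.9% in KO, a difference of -5.49 points (exact p = 0.333), or -3.23 points without WT replicate 1. LDHA was 27.4% and 23.3% of the lactate dehydrogenases in WT and 23.5% and 23.6% in KO. These overlapped (difference -1.81 points, exact p = 1, and 0.227 points without WT replicate 1 or -3.85 without WT replicate 2), so the ratio of the subunits did not separate the genotypes. ALDOA (98.7% to 98.9%), ENO1 (98.4% to 99.0%) and SLC16A1 (99.2% to 100%) made up nearly all of their families in each library. Among the fructose 2,6-bisphosphate enzymes PFKFB3 led, at 71.8% ± 0.523 in WT and 68.8% ± 1.70 in KO, and PFKFB4 was at 20.1% ± 0.666 and 22.6% ± 0.0877 (exact p = 0.333 for each). The PFKFB3 difference of -2.95 points was -1.76 without KO replicate 1.

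Beyond the set, 4 lists of related genes were read from the same fit, and 23 of their 95 tested genes were called, 7 higher and 16 lower. The background over all genes tested was 20.9% called, 8.79% higher and 12.1% lower, and the counts of each list stand against the same shares. DESeq2 called 14 (4 higher, 10 lower), and scaling by library size alone turned the split to 17 higher and 10 lower. Among 28 other enzymes of glycolysis and the pentose phosphate pathway, 1 rose and 4 fell (median log2 fold change 0.08). PGAM2, the muscle phosphoglycerate mutase, rose from 3.78 and 3.73 CPM to 8.90 and 10.1 CPM (log2 1.34 ± 0.29, adjusted p = 0.00154). PGP, a phosphatase that clears toxic side products of glycolysis, fell from 51.4 and 52.2 CPM to 27.1 and 27.4 CPM (log2 -0.93 ± 0.12, adjusted p = 2.18e-06), and is on chromosome 16.

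G6PC3, a ubiquitous glucose 6-phosphatase, fell (log2 -0.35, adjusted p = 0.0278). Its call was lost in DESeq2 (adjusted p = 0.102), in limma and with scaling by library size alone. It was also lost without KO replicate 1 (-0.25) or WT replicate 1 (-0.28).

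Of 15 tested genes for the entry of pyruvate into mitochondria, 0 rose by edgeR, 2 fell and 13 were not called (median log2 fold change -0.10). None was higher by DESeq2 or at an unadjusted p under 0.05, while limma called 1 higher. PDP2, a phosphatase that reactivates pyruvate dehydrogenase and so opposes PDK1, fell (log2 -0.51, adjusted p = 0.00177), and is on chromosome 16. PCK2, which makes phosphoenolpyruvate in mitochondria, fell (log2 -0.39, adjusted p = 0.0257). The PCK2 call was lost in DESeq2 (adjusted p = 0.094) and with scaling by library size alone. It was also lost without KO replicate 1 (-0.36), KO replicate 2 (-0.42) or WT replicate 1 (-0.28).

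In the oxygen-sensing machinery itself no rise passed the test. Of 14 tested HIF factors and sensors, 0 rose by edgeR, 5 fell and 9 were not called, and 4 of the 5 that fell are on chromosomes 16 and 22. DESeq2 and limma also called 0 higher, and 2 were higher at an unadjusted p under 0.05. HIF1A, the oxygen-controlled subunit, had a mean of 71.1 CPM in WT and 71.8 CPM in KO (log2 0.02 ± 0.09, adjusted p = 0.927). Its control is largely at the protein, which was not measured here. CREBBP, a coactivator of HIF, fell from 364 and 348 CPM to 261 and 261 CPM (log2 -0.45, adjusted p = 7.53e-06). RBX1 (log2 -0.41, adjusted p = 0.00148) and TCEB2, elongin B (-0.32, adjusted p = 0.000819), parts of the VHL ligase, fell as well. CREBBP and TCEB2 are on chromosome 16 and RBX1 on chromosome 22, where the median log2 fold change of tested genes was -0.42.

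Of 38 other tested hypoxia-responsive genes, 6 rose, 5 fell and 27 were not called, with a median log2 fold change of 0.09 and none on chromosome 16 or 22. DDIT4, a brake on mTORC1 that also responds to other stresses, rose from 67.2 and 62.1 CPM to 107 and 103 CPM (log2 0.70 ± 0.09, adjusted p = 1.25e-06). BHLHE40, a circadian repressor, rose (log2 0.51, adjusted p = 0.000931), as did KDM3A, a histone demethylase (0.43, adjusted p = 0.0183). KDM3A was not called by DESeq2 (adjusted p = 0.0799), without KO replicate 2 (0.31, adjusted p = 0.207) or without WT replicate 2 (0.33, adjusted p = 0.149).

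On the lower side, IER3, an early response gene, fell (log2 -1.13 ± 0.35, adjusted p = 0.022) from 45 and 78 counts to 30 and 36 counts. The IER3 call was lost in DESeq2 (adjusted p = 0.0668), without KO replicate 1 (-0.94, adjusted p = 0.184) and without WT replicate 2 (-0.98, adjusted p = 0.125). ANKZF1, a factor of ribosome quality control, fell (log2 -0.59, adjusted p = 0.00469). GYS1, the glycogen synthase of most tissues, fell from 124 and 111 CPM to 82.5 and 87.6 CPM (log2 -0.46, adjusted p = 0.000176). Known HIF-responsive genes thus stood on both sides.

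Because the study examined ribosome occupancy at the leucine codons UUA, CUA, UUG and CUU, their share was counted in the coding sequences of the set. The values describe the transcripts, and no translation was measured in these libraries. Canonical coding sequences were counted for 35 genes, with VEGFA left out because its annotated sequence does not begin with ATG. The median share was 26.3% of leucine codons, beside 40.9% over 12944 tested genes, and 25 of the 35 were below that all-gene median. ALDOA was at 15.4%, ENO1 at 16.7%, GPI at 17.0% and GAPDH at 21.1% (4 of 19 leucine codons), whereas PGK1, also abundant, was at 42.1%.

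Both lactate dehydrogenases stood at the other end of the set. LDHA had 27 of 38 leucine codons of these kinds (71.1%) and LDHB had 23 of 36 (63.9%), at the 87.6 and 78.3 percentile of tested genes. RPE (68.4%), SLC16A1 (67.3%), P4HA1 (61.1%) and PDK1 (58.1%) were also high. The 8 genes higher in KO ran from 17.0% to 71.1% (median 33.8%) and the 5 lower from 15.4% to 42.1% (median 23.9%), so the ranges overlapped.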

How the data were processed

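The authors deposited raw read counts per gene symbol, as whole numbers without normalization. The study's RNA-seq methods name STAR, RSEM and GRCh38, the labels list hg19, and which pipeline made these counts, and whether it used strand, is not given in the sources used here. The labels and the methods also differ on the library kit. The methods give more samples per genotype than the 2 labelled here, and any other was not analysed here. A deposited table of the authors' own comparison (fold changes, p-values) was not used.

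Counts were analysed with edgeR 4.0.16 in R 4.3.3 (TMM, glmQLFit, glmQLFTest; genotype as the only term) on genes that reach 1 CPM in 2 or more libraries. P-values are two-sided and Benjamini-Hochberg adjusted over 13128 genes, and genes under 0.05 are called. CPM use TMM-scaled library sizes, and fold changes are given as log2 of KO over WT ± standard error. In a simulation of this comparison over 13128 genes, 200 of 200 genes changed by 1 on the log2 scale were recovered and 7 unchanged genes were called. The changed genes were drawn above a minimum mean count, and the same spread was set for every gene. The simulation therefore does not speak to the smaller differences reported here. Libraries of one genotype differed by more than sampling noise. DESeq2 1.42.0 and limma 3.58.1 (voom, quantile) served as alternatives, beside other scalings, filters, thresholds and leaving out each library, where the lone library is assumed to vary like the other group.

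Positions, lengths and coding sequences are from GENCODE 44 (GRCh38), matched by current or older symbol, and promoters from RefSeq. Of the set, every called gene and GAPDH, PKM, LDHA, SLC2A1, PDK1, VEGFA, BNIP3 and CA9 are given by library, and the others mainly by counts and estimates. From each pathway list up to 3 called rises and 3 called falls of largest size are named, with HIF1A. A gene that this rule also names is not reported here. The members and lists were chosen with earlier results of these data known. Canonical-transcript lengths for the isozyme shares were added as an alternative after the data were seen.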

Additional observations from a re-analysis of the deposited data

How the results depend on the processing

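The 13 called members became 7 at the stricter threshold of 0.01 and 2 where the log2 difference also had to reach 0.5 in size, and were 9 to 10 with 1 library left out. Higher members were 8, then 4 and 1 under those thresholds and 5 to 6 with a library left out. Lower members were 5, then 3 and 1, with 3 under library size alone and 3 to 5 with a library left out. Over all genes, 2748 calls (1154 higher, 1594 lower) became 1755 in DESeq2 (643 higher), 1594 at 0.01 (556 higher, 1038 lower) and 1138 with the fold threshold (422 higher, 716 lower). Library size alone gave 2081 higher and 1158 lower. With a library left out the totals were 1617 to 2599, fewest without KO replicate 1, with 606 to 1106 higher and 1011 to 1493 lower. Related pathway genes, 23 called (7 higher, 16 lower), were 14 in DESeq2 (4 higher, 10 lower). Library size alone gave 17 higher and 10 lower, and leaving out a library gave 4 to 9 higher and 11 to 15 lower. The PFKFB4 difference of 2.47 points was 1.95 from counts not scaled by length. ALDOA lay 0.19 above the short arm's median and 0.02 to 0.11 above the chromosome's with a library left out.

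Among the members and HIF1A, signs turned for these genes, none of them called: under library size alone for ENO1 (0.02), PFKFB3 (0.06) and RPE (0.05), under voom for PFKFB3 (0.01), and with a library left out for SLC16A1 (-0.01 to 0.21), GAPDH (-0.01 to 0.13), ENO1 (-0.17 to 0.04), ENO2 (-0.26 to 0.46), PFKFB2 (-0.08 to 0.30), PFKFB3 (-0.13 to 0.10), PGD (-0.07 to 0.17), RPE (-0.13 to 0.05) and HIF1A (-0.01 to 0.05). TPI1, at 0.00, ran from -0.03 to 0.03 with a library left out and was 0.08 under library size alone. The cause was not tested. Same-numbered libraries correlated at 0.0301 in their deviations from the group means, so the numbers are not taken to pair them. With the replicate block 13 members, 25 related pathway genes and 3222 genes were called. SLC16A3, CA9 and ANKRD37 had at most 15 counts in a library, which limits what could be seen of them.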

Other observations

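Several tissue-restricted isozymes of the wider lists had few counts and large estimates that did not pass the test, and they were chosen here after their values were seen. ENO3, the muscle enolase, was read at 14 and 13 counts in WT against 37 and 22 in KO (log2 0.84, adjusted p = 0.293). SLC16A7 (MCT2), a high-affinity pyruvate and lactate carrier, was read at 13 and 20 counts in WT against 39 and 40 in KO (log2 1.01, adjusted p = 0.138). PFKFB1, the liver form, was read at 5 and 15 counts in WT against 32 and 21 in KO (log2 1.17, adjusted p = 0.166). In the other direction, SLC2A4 (GLUT4), the insulin-responsive transporter, was read at 31 and 27 counts in WT against 24 and 7 in KO (log2 -1.20, adjusted p = 0.133). PDK4, the fasting-induced kinase of pyruvate dehydrogenase, was read at 15 and 31 counts in WT against 15 and 9 in KO (log2 -1.16, adjusted p = 0.159), opposite in sign to PDK1.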
